A study of Mus musculus with 2 samples.

Results

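Alveolar type 2 (AT2) cells with the highest share of MHC class II transcripts were examined in sorted lung epithelium of male mice. They numbered 1377 of 18938 cell barcodes and were chosen in 3 steps. A barcode had to have at least 500 genes, at most 20% mitochondrial counts and at least 5000 UMIs (unique molecular identifiers, 1 per captured transcript). Of its UMIs, at least 10% had to be from Sftpc, the surfactant protein C gene that marks AT2 cells, which left 13772 AT2 cells. These were ranked by a score, the UMIs of Cd74, H2-Aa, H2-Ab1 and H2-Eb1 as a share of all UMIs of the cell. The top 10% of each library are called class II-high cells here, and the bottom 10% of the same library class II-low cells.

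The study compared 1 single-cell library from mice labelled IP-/-(IPKO) with 1 from WT mice, under a title on prostaglandin I2 receptor activation, alveolar regeneration, JUN and p53. Both were sorted from lung as EpCAM-positive cells without CD31, CD34, CD45, CD24 or Sca-1, and both carried the label AT2. The sources used here do not give strain, age, the number of mice behind a library or any injury or drug. The library labelled IPKO held 738 class II-high and 738 class II-low cells among 7380 AT2 cells, and the library labelled WT held 639 and 639 among 6392. Median depth was 17390.5 UMIs in class II-high and 15993 in class II-low cells labelled IPKO, and 18240 and 17723 in those labelled WT. Of the barcodes, 79 occurred in both libraries, and 0 were class II-high in both.

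The targeted gene goes against the labels. Ptgir, which encodes the prostaglandin I2 receptor, had 24 UMIs in class II-high and 32 in class II-low cells of the library labelled IPKO. In the library labelled WT it had 0 UMIs in both groups, where 3 counts would be 0.248 CPM (a gene's UMIs scaled to a common group total) in class II-high and 0.262 CPM in class II-low cells. Over all AT2 cells it had 313 UMIs in the library labelled IPKO and 0 in the library labelled WT. The kit reads the 3' end of transcripts, so where the tag lies against the deleted stretch bears on the UMIs labelled IPKO and not on the 0 UMIs labelled WT. Whether the labels are exchanged could not be settled, and an exchange would turn every direction between the libraries, so groups are named below only by their library label. With 1 library per label there is no replicate and no test. Intervals are exact 95% intervals for counting error alone, and a gene is called higher or lower at 1.5-fold.

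MHC class II proteins display peptides to CD4+ T cells. The alpha and beta chains (here H2-Aa with H2-Ab1, and H2-Eb1) are held by the invariant chain Cd74 until H2-DM, made of H2-DMa and a DMb chain, loads a peptide in the endosome. Most cells outside the immune system lack class II, but AT2 cells carry it constitutively, and the coactivator Ciita drives these genes together with RFX and NF-Y factors that bind X and Y boxes in their promoters.

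The class II-high cells carried the other markers of AT2 cells at levels close to those of class II-low cells, with a few exceptions. Over the 20 measured genes of surfactant and AT2 identity, the median log2 ratio of class II-high to class II-low cells was -0.07 in the library labelled IPKO and 0.01 in the library labelled WT. Sftpb, another surfactant protein gene, stood at 9619 CPM in class II-high and 9281 CPM in class II-low cells labelled IPKO, and at 10890 and 10132 CPM in those labelled WT. Lamp3, a lamellar body membrane gene, stood at 1365 and 1530 CPM in the library labelled IPKO and at 1531 and 1623 CPM in the library labelled WT. Scd1, a fatty acid desaturase also in this list, was the 1 member lower in both libraries (0.753% of all 8495 genes of at least 5 CPM were). In all 0 members were higher, 2 were lower labelled IPKO (Scd1 and the fatty acid carrier Fabp5) and 3 were lower labelled WT (Scd1, the complement gene Hc and the cytokine Il33), against 1.93% and 2.02% of all genes.

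The 4 score genes chose the cells, so their values are a description. The score ran between 0.674% and 3.26% of UMIs in class II-high cells labelled IPKO, with a median of 0.784%, against a median of 0.129% in class II-low cells. In the library labelled WT it ran between 0.473% and 2.11% with a median of 0.567% in class II-high cells, against a median of 0.0360% in class II-low cells. The cell just outside the cut had 0.674% in the library labelled IPKO and 0.473% in the library labelled WT, the same as the last member to 3 digits. The score had no gap at the cut, so class II-high cells are the upper end of a continuous range. A median class II-high cell carried 139 UMIs of the 4 genes in the library labelled IPKO and 108 in the library labelled WT, against 19 and 6 in class II-low cells. No class II-high cell lacked the 4 genes, while 1 class II-low cell labelled IPKO and 34 labelled WT did.

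Cd74 was the most abundant of them, with 5330 CPM in class II-high and 897 CPM in class II-low cells labelled IPKO, and 3870 and 264 CPM in those labelled WT. The chain genes had steeper ratios than their escort. H2-Aa had 1359 and 154 CPM in the library labelled IPKO and 1067 and 36.2 CPM in the library labelled WT. H2-Ab1 had 1086 and 101 CPM in the library labelled IPKO and 806 and 33.0 CPM in the library labelled WT. H2-Eb1 had 598 and 51.2 CPM in the library labelled IPKO and 456 and 12.1 CPM in the library labelled WT. Cd74 therefore made up 63.7% of the UMIs of the 4 genes in class II-high cells labelled IPKO against 74.6% in class II-low cells, and 62.4% against 76.5% in those labelled WT.

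Taking a gene out of the score left it high in the chosen cells. With cells chosen by the 3 H2 genes alone, Cd74 had a log2 ratio of 2.10 in the library labelled IPKO and 3.11 in the library labelled WT. With cells chosen by Cd74 alone, H2-Aa had 2.66 and 4.15 in these libraries, and H2-Eb1 had 2.96 and 4.49. When each cell's UMIs were split at random into equal parts, 70.2% of the class II-high cells of one part were class II-high in the other in the library labelled IPKO, and 73.6% in the library labelled WT.

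Class II genes outside the score followed it. H2-DMa (chr17:34119541-34139101, plus strand) and H2-DMb1 (chr17:34153072-34160230, plus strand; GRCm38, GENCODE) lie in the class II region beside H2-Ab1, H2-Aa and H2-Eb1. H2-DMa had 103 CPM in class II-high and 14.98 CPM in class II-low cells of the library labelled IPKO, a log2 ratio of 2.78 (2.56 to 3.02). In the library labelled WT it had 82.8 and 4.55 CPM, a log2 ratio of 4.19 (3.78 to 4.62), the highest among all genes of at least 20 CPM outside the score. H2-DMb1, a DM beta chain, had 126 and 31.2 CPM in the library labelled IPKO (2.01, 1.85 to 2.18) and 101 and 18.9 CPM in the library labelled WT (2.42, 2.21 to 2.64). H2-DMb2, its near-identical neighbour with which reads can be shared, had 57 UMIs in class II-high and 1 in class II-low cells labelled IPKO, a log2 ratio of 5.68 (3.14 to 11.004). In the library labelled WT it had 21 UMIs in class II-high cells and 0 in class II-low cells, a log2 ratio of at least 2.73 by a floor of 3 counts per group.

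Ciita, the class II coactivator, was scarce but graded in the same direction. It had 10.1 CPM in class II-high and 3.83 CPM in class II-low cells labelled IPKO (1.41, 0.91 to 1.93), and 7.19 and 1.57 CPM in those labelled WT (2.19, 1.45 to 3.01). Its partners stayed under 1.5-fold. Rfx5 had 7.63 and 8.25 CPM in the library labelled IPKO and 7.44 and 6.47 CPM in the library labelled WT. Rfxap had 21.4 and 17.9 CPM in the library labelled IPKO and 16.1 and 15.4 CPM in the library labelled WT, and the log2 ratios of Rfxank, Nfya, Nfyb, Nfyc and Creb1 lay between -0.24 and 0.31 in both libraries. Of the 10 measured genes in the list of other class II genes, 3 were higher in both libraries (H2-DMa, H2-DMb1 and Ciita), where 1.4% of all 8495 genes of at least 5 CPM were (2.21% in the library labelled IPKO and 3.06% in the library labelled WT). H2-Ob had no UMI in any of the 4 groups. H2-Oa, the other chain of the DO protein that restrains DM, had 4 UMIs in class II-high cells labelled IPKO and 0 in the rest, and H2-Eb2 had 13 UMIs in those cells and 1 in class II-high cells labelled WT.

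**Figure D1:**
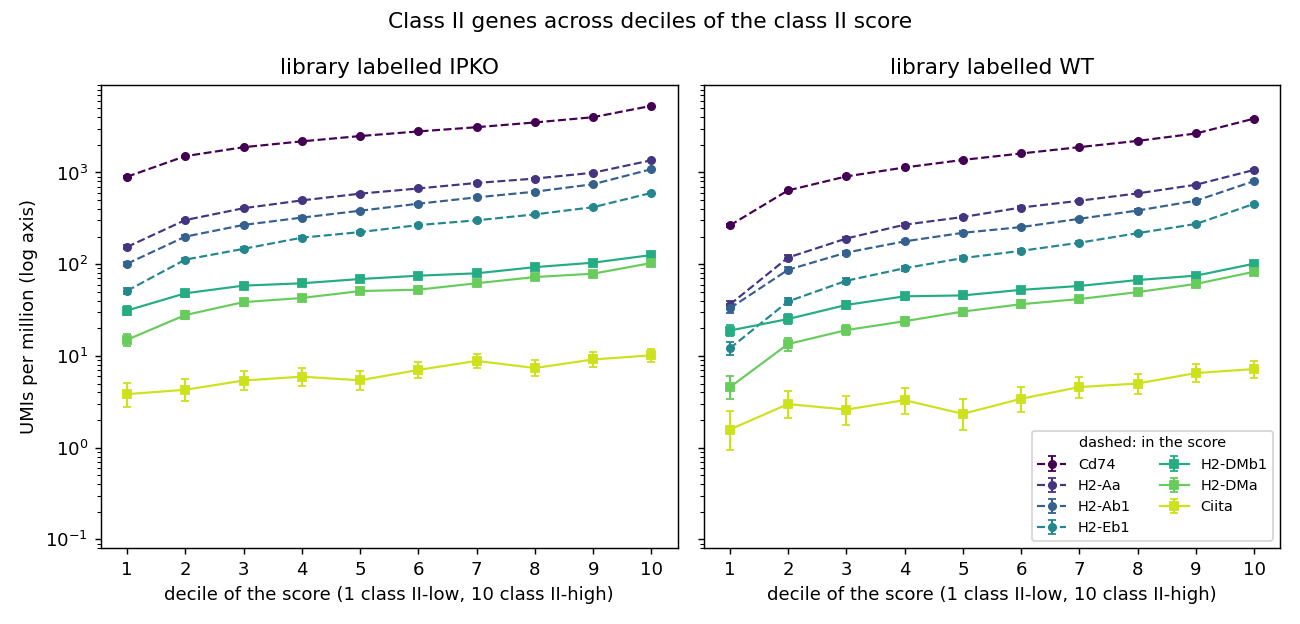
Level of class II genes (y axis, CPM, log axis) in each decile of the class II score (x axis, 1 the class II-low and 10 the class II-high cells) in the library labelled IPKO (left) and labelled WT (right). Points are sums over the cells of a decile, bars 95% Poisson intervals, and dashed lines the 4 genes of the score. H2-DMa reached 103 CPM labelled IPKO and 82.8 CPM labelled WT in the class II-high decile, with an increase at each of the 9 steps.

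The promoters of these genes are shown because Ciita acts through X and Y boxes. RefSeq start sites of GRCm38.p6 gave windows of 250 bases before to 50 after the start for 5 of 8 genes searched (H2-Aa, H2-Eb1, H2-DMa, H2-DMb1 and H2-DMb2). Capitals mark the X box, AACTGATGATG in H2-Eb1 and H2-DMb1 and searched as AAC, any base and GATGATG, and the Y box, GATTGG or its reverse complement. Both motifs were chosen after these sequences were seen and were searched on both strands. The windows lie at chr17:34305617-34305916 on the plus strand for H2-Eb1, chr17:34152941-34153240 on the plus strand for H2-DMb1 and chr17:34287774-34288073 on the minus strand for H2-Aa.
H2-Eb1: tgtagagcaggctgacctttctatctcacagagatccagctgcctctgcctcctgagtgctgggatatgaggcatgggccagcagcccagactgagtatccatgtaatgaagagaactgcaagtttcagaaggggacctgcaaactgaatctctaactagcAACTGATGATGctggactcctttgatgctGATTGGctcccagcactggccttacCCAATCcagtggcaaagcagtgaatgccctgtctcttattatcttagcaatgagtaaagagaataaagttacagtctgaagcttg
H2-DMb1: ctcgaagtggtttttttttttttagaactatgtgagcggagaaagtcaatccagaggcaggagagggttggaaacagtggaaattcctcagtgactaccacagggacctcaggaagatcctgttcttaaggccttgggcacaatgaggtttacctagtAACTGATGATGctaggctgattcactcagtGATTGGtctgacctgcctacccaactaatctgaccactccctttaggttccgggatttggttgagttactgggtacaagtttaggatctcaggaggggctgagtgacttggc
H2-Aa: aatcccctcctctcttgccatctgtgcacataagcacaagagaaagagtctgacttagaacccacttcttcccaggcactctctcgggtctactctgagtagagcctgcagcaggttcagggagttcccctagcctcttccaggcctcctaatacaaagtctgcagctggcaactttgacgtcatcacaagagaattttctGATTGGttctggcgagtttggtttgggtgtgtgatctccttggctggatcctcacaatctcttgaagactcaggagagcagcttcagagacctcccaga
H2-Eb1 held an X box that began 89 bases before the start and a Y box that began 60 bases before it, with 18 bases between them. H2-DMb1 held them at 92 and 62 bases, and H2-DMb2 at 121 and 91, with 19 bases between them in both. H2-Aa held a Y box beginning 49 bases before the start and no match to these X box letters, and of the 2 windows of H2-DMa 1 held a Y box, 199 bases before its start. The H2-DMa windows lie at chr17:34122582-34122881 and chr17:34125268-34125567, inside the span of the gene given above. Any other start of H2-DMa was not searched. Among all 32851 promoter windows of the same length, 16.1% held the Y box letters, 0.0609% the X box letters and 8 windows (0.0244%) both. H2-Eb1, H2-DMb1 and H2-DMb2 were 3 of those 8 windows.

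Across all genes the class II-high cells differed from class II-low cells in few. Of 4411 genes of at least 20 CPM other than Sftpc and the score genes, 66 (1.5%) were at least 1.5-fold higher in class II-high cells labelled IPKO and 86 (1.95%) in those labelled WT. Lower were 52 (1.18%) in the library labelled IPKO and 70 (1.59%) in the library labelled WT. In both libraries 53 genes (1.2%) were higher, which is 80.3% of those called in the library labelled IPKO and 61.6% of those called in the library labelled WT. Another 34 (0.771%) were lower in both, 65.4% and 48.6% of the calls.

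**Figure D2:**
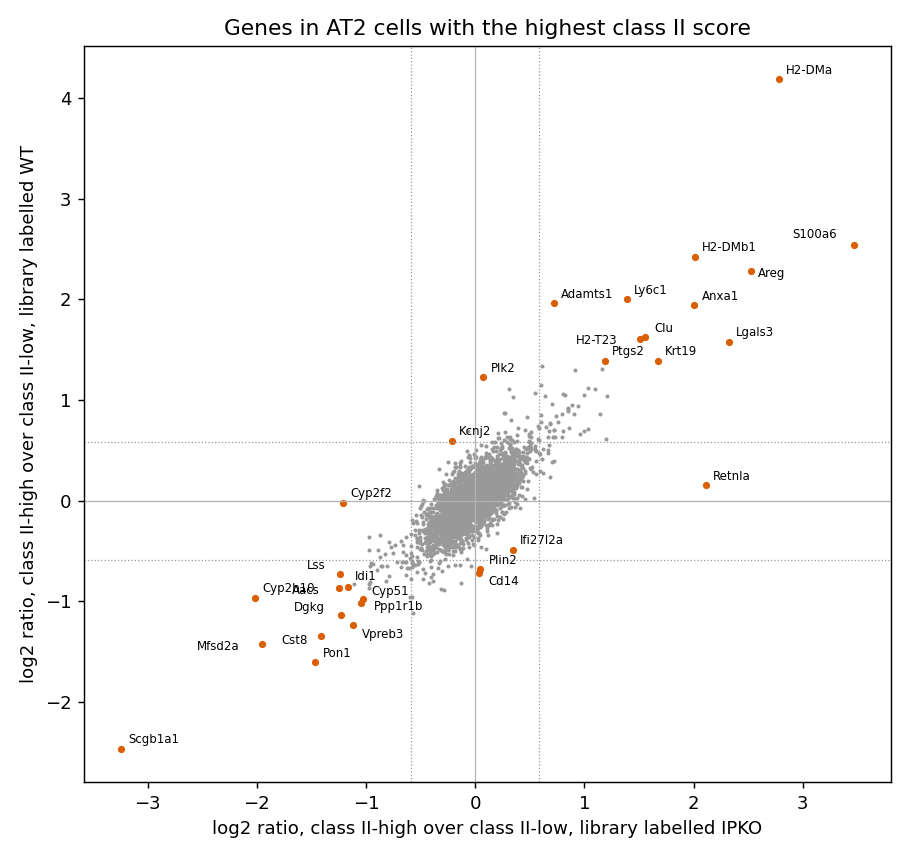
Log2 ratio of class II-high to class II-low cells for 4411 genes (grey) in the library labelled IPKO (x axis) and labelled WT (y axis), with genes named by rule in orange and dotted lines at 1.5-fold. H2-DMa, S100a6 and Areg lie at the upper right and Scgb1a1 at the lower left, while Retnla lies at 2.11 on the x axis and 0.16 on the y axis.

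Genes of the transitional state were among the higher genes. This is the keratin-rich state that AT2 cells pass through in culture or after injury on the way to flat alveolar type 1 (AT1) cells. Of its 15 measured genes, 13 were higher in both libraries, where 1.4% of all 8495 genes of at least 5 CPM were. The list median was 1.16 in the library labelled IPKO and 1.39 in the library labelled WT, against -0.01 and 0.04 over those 8495 genes. S100a6, a calcium-binding protein, had 114 CPM in class II-high and 10.3 CPM in class II-low cells labelled IPKO (3.47, 3.20 to 3.75), and 136 and 23.4 CPM in those labelled WT (2.54, 2.35 to 2.73). Areg, an epidermal growth factor receptor ligand, had 108 and 18.7 CPM in the library labelled IPKO and 65.8 and 13.6 CPM in the library labelled WT. Lgals3, or galectin-3, had 174 and 34.7 CPM in the library labelled IPKO and 111 and 37.1 CPM in the library labelled WT. For each of these genes both class II-high levels lay above both class II-low levels.

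The keratins of that list had smaller ratios than S100a6, Areg and Lgals3. Krt8, a keratin of simple epithelia, had 232 CPM in class II-high and 104 CPM in class II-low cells labelled IPKO, and 213 and 86.3 CPM in those labelled WT. Its partner Krt18 had log2 ratios of 1.10 in the library labelled IPKO and 1.11 in the library labelled WT, and Krt19 had 1.67 and 1.39. Anxa1, a phospholipid-binding protein that restrains inflammation, had 2.01 and 1.94, and the secreted chaperone Clu 1.56 and 1.63. Nupr1, a stress-responsive chromatin protein, stood apart in the list with 520 and 493 CPM in the library labelled IPKO and 487 and 505 CPM in the library labelled WT. Hbegf, another growth factor receptor ligand, was higher in the library labelled WT alone, with log2 ratios of 0.35 labelled IPKO and 1.03 labelled WT.

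These genes were unevenly spread over the class II-high cells. With each cell thinned to 5000 UMIs, S100a6 averaged 0.570 UMIs per class II-high cell with a standard deviation of 3.04 over 738 cells labelled IPKO, against 0.0501 with 0.613 in class II-low cells, and both medians were 0. The summed list had a median of 8 UMIs and a 90th percentile of 17.3 in class II-high cells labelled IPKO, against 5 and 10 in class II-low cells. In the library labelled WT the median was 7 and the 90th percentile 17, against 5 and 10. Among class II-high cells, 25.3% labelled IPKO (22.2 to 28.6) and 26.4% labelled WT (23.1 to 30.0) were also in the top 10% of their library for this list, against 4.74% and 5.63% of class II-low cells. With those top 10% left out before choosing, the genes higher in both libraries numbered 25 in place of 53, and the list medians were 0.64 labelled IPKO and 0.75 labelled WT. S100a6 then had 0.51 and 1.06, and Lgals3 0.76 and 0.86, while H2-DMa stayed at 2.74 and 4.06. With cells chosen by the 3 H2 genes alone, Lgals3 had 1.28 labelled IPKO and 0.32 labelled WT, where it was no longer called.

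Class I genes were higher too, by less. Class I proteins display peptides to CD8+ T cells, and the list held heavy chains, B2m, peptide transporters and the immunoproteasome. Of 21 measured genes, 6 were higher in both libraries and 0 lower, with list medians of 0.42 labelled IPKO and 0.52 labelled WT, where 1.4% of all genes of at least 5 CPM were higher in both. H2-T23, the nonclassical heavy chain of Qa-1, had 99.6 CPM in class II-high and 34.9 CPM in class II-low cells labelled IPKO (1.51, 1.35 to 1.68), and 56.6 and 18.5 CPM in those labelled WT (1.61, 1.39 to 1.84). Psmb8, an immunoproteasome subunit, had 67.8 and 41.5 CPM in the library labelled IPKO and 50.5 and 26.0 CPM in the library labelled WT. The common light chain B2m had 338 and 253 CPM in the library labelled IPKO and 198 and 156 CPM in the library labelled WT, under 1.5-fold in both. Reads of the H2-D, H2-K and H2-Q heavy chains can be split among near-identical copies, so their single ratios, 0.83 and 0.99 for H2-Q7, are uncertain.

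Interferon response genes differed among themselves. Interferon gamma is a known inducer of Ciita. The list for its response also held signalling genes (Ifngr2, Jak1 and Jak2), and 7 of its 22 genes in the files were measured. The median of these 7 was 0.01 in the library labelled IPKO and 0.05 in the library labelled WT. It says little on the genes that interferon gamma induces. The receptor chain Ifngr2 was the 1 gene of them higher in both, with 20.3 CPM in class II-high and 11.1 CPM in class II-low cells labelled IPKO, and 23.6 and 12.1 CPM in those labelled WT. The kinase Jak2 had log2 ratios of -0.24 and -0.47, and Jak1 of 0.07 and -0.14. Of 10 measured type I interferon response genes, 2 were higher in both libraries (1.4% of all genes of at least 5 CPM), with list medians of 0.48 and 0.35. Ly6e, a surface protein, had 0.85 labelled IPKO and 0.89 labelled WT, and the antiviral membrane protein Ifitm3 1.80 and 1.42.

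Of 10 measured genes of class II peptide loading and lysosomal proteases, only Ctsh was higher in both libraries (1.4% of all genes were). This cathepsin, which AT2 cells use to process surfactant protein precursors, had 1407 CPM in class II-high and 730 CPM in class II-low cells labelled IPKO, and 1358 and 709 CPM in those labelled WT. Ctss, the main protease that cuts the invariant chain in professional antigen-presenting cells, was under 5 CPM, with 27 and 2 UMIs in the library labelled IPKO and 2 and 1 in the library labelled WT. Ifi30, a lysosomal thiol reductase, had log2 ratios of 0.32 and 0.44, and Sppl2a, which cleaves the Cd74 remnant, -0.03 and -0.06.

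**Figure D3:**
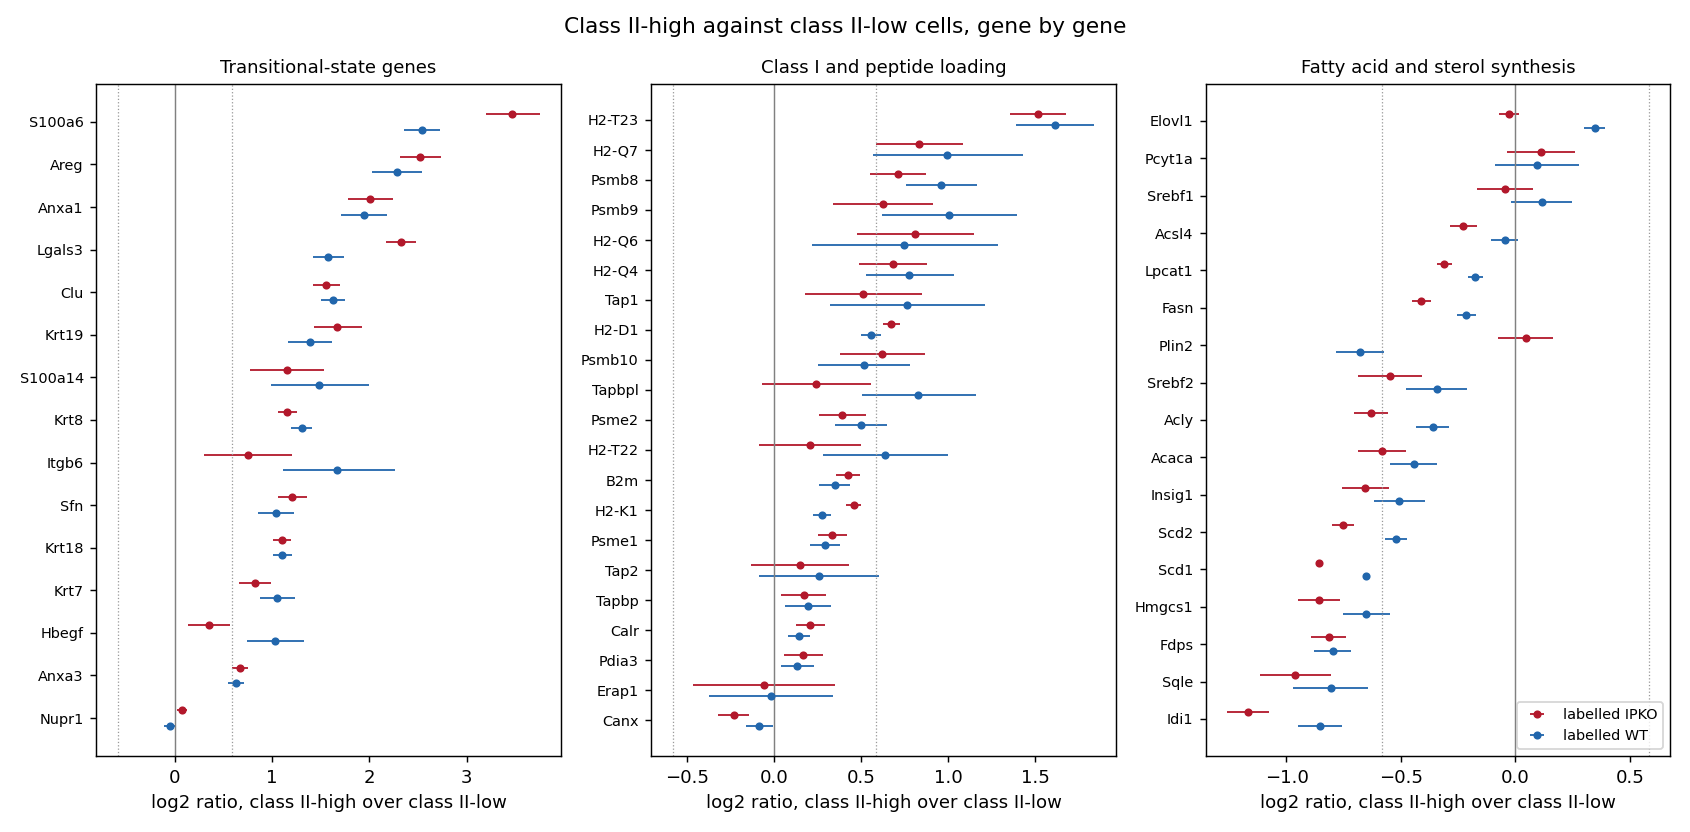
Log2 ratio of class II-high to class II-low cells (x axis) for measured genes of 3 lists (y axis), in the library labelled IPKO (red, upper) and labelled WT (blue, lower), with 95% counting intervals and dotted lines at 1.5-fold. Transitional-state genes lie right of 0 except Nupr1 in the library labelled WT, and most lipid genes lie left of it, down to -1.17 for Idi1 labelled IPKO.

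Lipid synthesis genes were lower in class II-high cells. AT2 cells make fatty acids, sterols and phospholipids for surfactant. Of 19 measured genes, 7 were lower in both libraries, 10 in the library labelled IPKO and 8 in the library labelled WT, and 0 were higher, where 0.753% of all genes of at least 5 CPM were lower in both. The list medians were -0.63 labelled IPKO and -0.51 labelled WT. Idi1, an isomerase of the sterol pathway, had 114 CPM in class II-high and 256 CPM in class II-low cells labelled IPKO, and 117 and 212 CPM in those labelled WT. Scd1 had 4051 and 7339 CPM in the library labelled IPKO and 5801 and 9116 CPM in the library labelled WT. Sqle, Fdps and Hmgcs1 of the sterol pathway were also among the 7.

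Cyp51, Lss and Aacs were among the 12 genes with the lowest mean ratios and are not in that list. Cyp51, a sterol demethylase, had log2 ratios of -1.05 labelled IPKO and -1.01 labelled WT, the cyclase Lss -1.24 and -0.73, and Aacs, which makes acetoacetyl-CoA, -1.25 and -0.87. Mfsd2a, a transporter of lysophosphatidylcholine, had 5.42 CPM in class II-high and 20.9 CPM in class II-low cells labelled IPKO, and 19.4 and 52.2 CPM in those labelled WT. Srebf1 did not follow, with -0.05 and 0.11, and Srebf2, the sterol pathway's transcription factor, had -0.55 and -0.34. Pon1, a lipid-associated esterase, had 35.6 and 98.4 CPM in the library labelled IPKO and 67.1 and 204 CPM in the library labelled WT. Thinned to 5000 UMIs, the summed list had a median of 38 UMIs in class II-high and 58 in class II-low cells labelled IPKO, and 49 and 71 in those labelled WT.

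Scgb1a1, the secretoglobin of club cells, had the lowest ratio of the 4411 genes in each library. It had 122 CPM in class II-high and 1153 CPM in class II-low cells labelled IPKO (-3.24, -3.32 to -3.17), and 359 and 1978 CPM in those labelled WT (-2.46, -2.51 to -2.42). In the library labelled IPKO the class II-low level rested on few cells, at 4.57 UMIs with a standard deviation of 53.2 after thinning and a median of 1. Of class II-high cells, 2.03% labelled IPKO and 0.782% labelled WT were in the top 10% of their library for Scgb1a1, against 15.99% and 18.9% of class II-low cells. With that top 10% left out, the log2 ratios were -0.77 labelled IPKO and -1.50 labelled WT. Club and secretory markers, with Scgb1a1 counted among them, summed to 743 CPM in class II-high and 1995 CPM in class II-low cells labelled IPKO. In those labelled WT they summed to 1108 and 3145 CPM. Of the 3 measured, Scgb1a1 alone was lower in both libraries, where 0.753% of all genes of at least 5 CPM were. The part of club markers in the result was not tested. Cyp2f2, another club cell gene, had -1.21 labelled IPKO and -0.02 labelled WT.

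**Figure D4:**
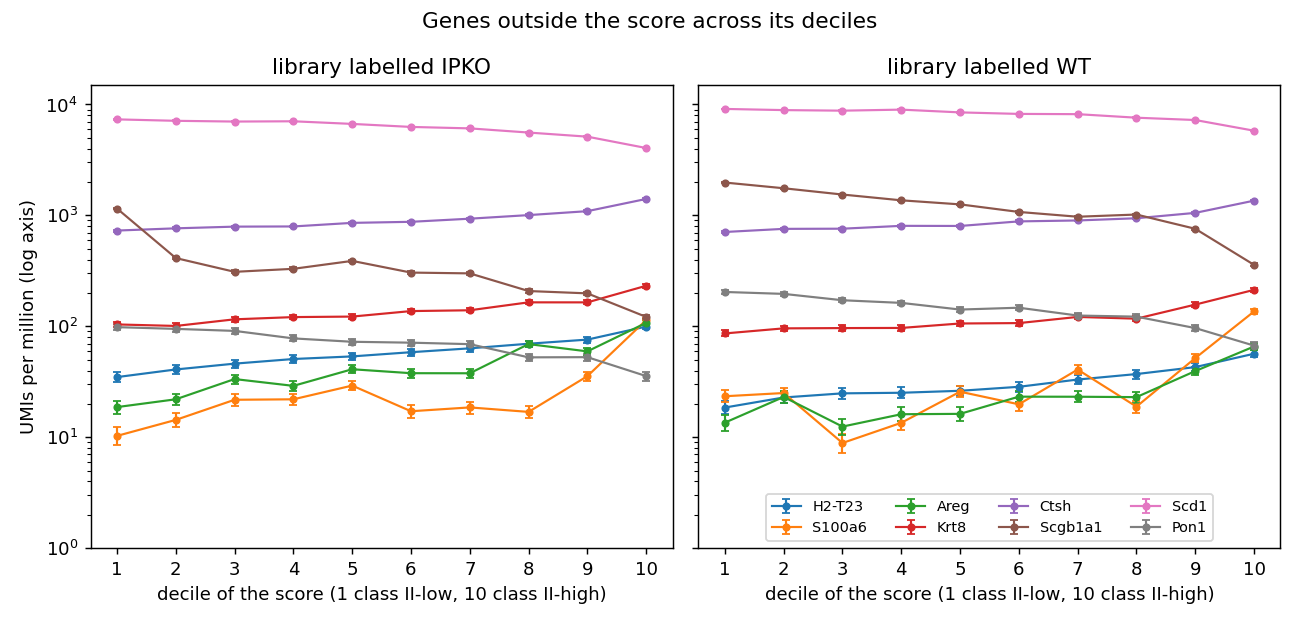
Level of 8 genes outside the score (y axis, CPM, log axis) in each decile of the class II score (x axis, 1 class II-low and 10 class II-high) in the library labelled IPKO (left) and labelled WT (right), with 95% Poisson intervals. H2-T23 climbed at every step in both libraries, S100a6 stood at 35.6 CPM labelled IPKO and 51.7 CPM labelled WT in decile 9 and above 100 CPM in decile 10, and Scgb1a1 was lower at 7 of 9 steps labelled IPKO and 8 labelled WT.

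Some genes followed the score step by step, while S100a6 was higher at 7 of 9 steps labelled IPKO and 6 labelled WT. H2-DMa, H2-DMb1 and H2-T23 were higher at each of 9 steps between deciles in both libraries, and Ctsh at 9 steps labelled IPKO and 8 labelled WT. S100a6 had 114 CPM in the top decile against 35.6 CPM in the next labelled IPKO, and 136 against 51.7 CPM labelled WT. This was its largest CPM step, and H2-DMa, H2-DMb1, H2-T23 and Ctsh also had theirs between deciles 9 and 10 in both libraries. Over the 20 decile groups, which share library and depth, the levels most like the score were those of H2-DMa (Pearson r 0.996), H2-DMb1 (0.991), Ostc (0.943), Serf2 (0.933) and Ly6c1 (0.932). Ostc is an oligosaccharyltransferase subunit, and Ly6c1, a surface protein whose reads can be shared with Ly6c2, had 93.5 and 35.7 CPM labelled IPKO and 72.8 and 18.2 CPM labelled WT.

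Most other groups had medians near 0. No measured gene of the AT1 list (13), the heat shock chaperones (16) or the AP-1 and immediate early list (18) was higher or lower in both libraries. Over all genes of at least 5 CPM, 1.4% were higher and 0.753% lower in both, so 0 in such short lists is near that share. In the library labelled WT 3 AP-1 and immediate early genes were higher, and 0 labelled IPKO, against 3.06% and 2.21% of all genes. List medians were 0.16 labelled IPKO and 0.05 labelled WT for AT1 genes, and -0.01 and 0.13 for 13 p53 targets. Unfolded protein response, nuclear oxidative phosphorylation, glucocorticoid, prostanoid, cell cycle, Wnt and YAP lists had medians between -0.21 and 0.22 in both libraries. The 14 clock genes had medians of -0.06 and 0.00, but in the library labelled WT 2 were higher and 4 lower, against 0 and 0 labelled IPKO. Over all genes of at least 5 CPM, 3.06% were higher and 2.02% lower labelled WT, and 2.21% and 1.93% labelled IPKO. Among 14 genes, the 0 called labelled IPKO is near those shares. Dbp, a clock output factor, had log2 ratios of -0.05 labelled IPKO and 1.44 labelled WT, the period gene Per2 0.01 and 1.09, the repressor Cry1 -0.53 and -1.73, and Npas2, a partner of the clock activator, -0.30 and -0.85. AP-1 and immediate early genes had 0.06 and 0.30, and the summed level was 5771 CPM in class II-high and 6060 CPM in class II-low cells labelled IPKO and 3705 and 3259 CPM in those labelled WT. Among NF-kB genes 3 of 9 were higher in both (Nfkbia, Nfkb2 and Ptgs2; 1.4% of all genes were), with list medians of 0.05 and 0.06. The prostaglandin synthase Ptgs2 had 42.0 and 18.5 CPM labelled IPKO and 33.5 and 12.8 CPM labelled WT, and Ptges, which makes prostaglandin E2, was lower in both, at -0.89 and -0.84. Of 14 secreted defence genes, 4 were higher in both libraries and 1, Scgb1a1, was lower, where 1.4% and 0.753% of all genes were. Their list medians were 0.25 labelled IPKO and 0.24 labelled WT. Lcn2, a siderophore-binding protein, had 663 and 380 CPM in the library labelled IPKO and 814 and 504 CPM in the library labelled WT.

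Between the libraries, more cells labelled IPKO than labelled WT had a high class II score. With 1 cut for both libraries, at the 90th percentile of all AT2 cells (0.611% of UMIs, set by both libraries together), 1136 of 7380 cells labelled IPKO lay above it (15.4%, 14.6 to 16.2) and 242 of 6392 labelled WT (3.79%, 3.33 to 4.28, exact binomial intervals). At the 10th percentile (0.102%), 3.02% of cells labelled IPKO and 18.1% labelled WT lay below. H2-DMa, which the score did not use, had a log2 ratio of the library labelled IPKO to that labelled WT of 0.32 (0.20 to 0.44) in class II-high cells and 1.72 (1.27 to 2.19) in class II-low cells. H2-DMb1 had 0.31 and 0.72. Both cuts were lower in the library labelled WT, so neither pair of groups holds cells of equal score. The part of the cuts in these ratios was not tested. In 60 T cell barcodes of the library labelled IPKO, which had Sftpc under 10% of UMIs and at least 3 UMIs of Cd3d, Cd3e and Cd3g, the 4 score genes summed to 1128 CPM (1028 to 1235), beside 1203 CPM in its class II-low cells. The single genes did not match: Cd74 had 490 CPM in T cell barcodes, beside 897 CPM in class II-low cells, and H2-Eb1 had 202 CPM, beside 51.2 CPM. In 11 such barcodes labelled WT the 4 genes summed to 12671 CPM, above its class II-high cells. These barcodes give no usable background level, and the part of free RNA in the class II-low levels was not tested.

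**Figure D5:**
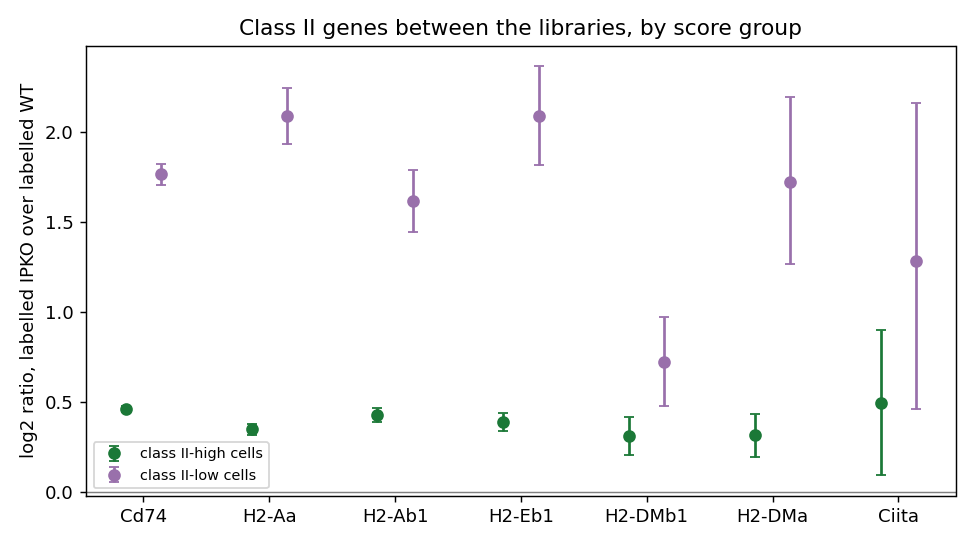
Log2 ratio of the library labelled IPKO to the library labelled WT (y axis) for 7 class II genes (x axis) in class II-high cells (green, left) and class II-low cells (purple, right), with 95% counting intervals. The points of class II-high cells lie at 0.31 to 0.50 and those of class II-low cells at 0.72 to 2.09, where the groups were cut at a lower score in the library labelled WT.

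Among all 4411 genes, 59 (1.34%) were higher and 78 (1.77%) lower in class II-high cells labelled IPKO than in those labelled WT. In class II-low cells 89 (2.02%) were higher and 80 (1.81%) lower. Among genes of at least 5 CPM the shares were 2.22% and 1.88% in class II-high and 3.28% and 2.2% in class II-low cells. The genes whose class II ratio differed most between the libraries were chosen for that difference. Retnla, a secreted resistin-like protein, had 68.1 CPM in class II-high and 15.7 CPM in class II-low cells labelled IPKO, and 25.7 and 23.1 CPM in those labelled WT. Labelled IPKO it did not follow the deciles, with 53.5 CPM in decile 7, 17.7 CPM in decile 9 and an increase at 4 of 9 steps. Adamts1, a secreted metalloprotease, had 56.6 and 34.4 CPM labelled IPKO and 47.7 and 12.2 CPM labelled WT. Plk2, a p53 target kinase, had log2 ratios of 0.08 and 1.22, the lipid droplet protein Plin2 0.04 and -0.68, and the lipopolysaccharide coreceptor Cd14 0.04 and -0.71. Cyp2b10, a xenobiotic oxidase, was lower in class II-high cells of both, at 1.22 and 4.94 CPM labelled IPKO and 79.6 and 155 CPM labelled WT, so its gap between the libraries was wider than between score groups.

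Markers of class II-bearing immune cells were scarce but not absent. In class II-high cells labelled IPKO 8 of 8 B cell markers had UMIs, against 2 in class II-low cells, and 7 against 2 in the library labelled WT. Their summed level was 29.7 and 23.7 CPM labelled IPKO and 26.1 and 22.5 CPM labelled WT, mostly Cd79b. Cd79a, which defines B cells, had 17 UMIs in class II-high and 2 in class II-low cells labelled IPKO, and 12 and 1 in those labelled WT. Of 10 dendritic cell markers 5 and 2 had UMIs labelled IPKO and 3 and 1 labelled WT, with Itgax and Flt3 at 0 in all 4 groups and a sum between 1.66 and 3.51 CPM. Macrophage and monocyte markers summed to 39.5 and 21.0 CPM labelled IPKO and 38.5 and 20.8 CPM labelled WT, mostly Ly6c2, with Adgre1 at 0 in all 4 groups. Ptprc, the CD45 of the sort, had 21 and 18 UMIs labelled IPKO and 0 and 0 labelled WT. At least 3 UMIs of rare leukocyte markers were found in 8 class II-high and 5 class II-low cells labelled IPKO, and in 4 and 1 labelled WT. With every cell that held any such UMI left out, the number of genes higher in both libraries was 53, and H2-DMa had 2.77 labelled IPKO and 4.13 labelled WT. Lgals3 labelled IPKO was then 1.70 and S100a6 labelled WT 3.69. Endothelial markers summed to 15.8 and 10.5 CPM labelled IPKO and 19.9 and 9.45 CPM labelled WT, pan-leukocyte markers to 105 and 116, with 91.0 and 99.7 CPM labelled WT, and ciliated cell markers to 88.9 and 69.1 CPM, with 66.1 and 53.01 CPM labelled WT. T and NK cell, neutrophil and mesenchymal markers were each under 8 CPM in all 4 groups. The part of these cells in the results was not tested beyond the values without marker-bearing cells.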

How the data were processed

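The deposited matrices hold UMI counts, not normalized, which the authors made with Cell Ranger 4.0.0 on GRCm38 (mm10) per the submitters' processing notes (the sources used here name no annotation release). Counts were used as deposited, summed over the cells of a group, divided by the group's total (CPM) and compared as log2 ratios with exact conditional binomial 95% intervals. Depth was about 137472000 UMIs in the library labelled IPKO and 127287000 in the library labelled WT. Groups follow the genotype label. Gene counts use 4411 genes of at least 20 CPM over AT2 cells and lists use genes of at least 5 CPM. No doublet caller was run. Some list members are counted in their list and not reported here by name. Zero counts were set to 3 counts for a ratio. The members, 24 gene lists and 11 marker lists (503 of 513 entries in the files) were chosen with earlier results of these data known. Genes were named by rule: the class II genes, the 12 highest and 12 lowest mean ratios with 1 sign in both libraries, up to 4 per list, the 6 highest and 6 lowest differences between libraries, and the 5 most like the score; other list members and markers named as examples were chosen after their values were seen. Scripts ran in Python 3.11.15 with numpy 2.4.6, scipy 1.17.1 and pandas 2.3.3 and were tested on simulated data. Alternatives covered 18 planned settings and 2 added after seeing the data. Promoter windows came from RefSeq (GRCm38.p6).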

Additional observations from a re-analysis of the deposited data

Results flagged for a closer look

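Kcnj2, an inward-rectifier potassium channel gene, had opposite signs in the libraries. Its log2 ratio of class II-high to class II-low cells was -0.21 in the library labelled IPKO and 0.60 in the library labelled WT. mt-Cytb, the mitochondrial cytochrome b gene, likewise had 0.037 in the library labelled IPKO and -0.029 in the library labelled WT. With 1 library per label, the difference between libraries was not tested.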

How the results depend on the processing

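Of 105 ratios of named genes at or past 1.5-fold, 0 took the other sign under any setting. The named genes include the score genes, which chose the cells. They also include genes named for the highest or lowest mean ratios with the same sign in both libraries. The signs of these genes were partly set by that choice, so for them the 0 is not an independent test. Moved values follow as labelled IPKO, labelled WT and both. Choosing the top and bottom 5% gave 102 and 153 higher genes and 90, 152 and 59 lower genes, with medians of 1.81 for transitional-state genes and 0.69 for class I genes labelled WT, and -0.77 and -0.67 for lipid genes. Choosing 20% gave 35, 48 and 29 higher and 29, 22 and 14 lower genes, with medians of 0.95 and 0.84 for transitional-state and -0.46 for lipid genes labelled IPKO. Genes of at least 5 CPM gave 188, 260 and 119 higher and 164, 172 and 64 lower, and 189 higher and 160 lower between the libraries within class II-high cells. A call at 0.32 on the log2 scale gave 295, 366 and 165 higher and 302, 304 and 160 lower. A score of the 3 H2 genes gave 30 higher in both, 34 lower labelled IPKO and 21 lower in both, with transitional-state medians of 0.98 and 0.88, and put 4.65% of cells labelled WT above the common cut. Without the top 10% for transitional-state genes, a setting chosen after seeing the data, 32, 45 and 25 were higher and 37 labelled WT and 17 in both were lower, with medians of 0.64 and 0.75, and -0.52 for lipid genes labelled IPKO. Several named genes fell under 1.5-fold in 1 library under some settings, with values nearest 0 of 0.44 for Ifngr2, 0.24 for Nfkb2, 0.43 for Adamts1, 0.42 for Mt2 and 0.56 for Tnfsf9 labelled IPKO, and -0.45 for Scd1, -0.43 for Lss, -0.55 for Idi1, -0.49 for Plin2 and -0.39 for Cd14 labelled WT. No paired analysis was possible because each label has 1 library. The limits are the single library per label, counting intervals that leave out variation between mice, uncalled doublets, and low counts for Ciita and H2-DMb2.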

Other observations

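Outside the comparisons above, Ly6a, which encodes the Sca-1 protein that the sort excluded, was chosen after its values were seen. It had 185 UMIs in class II-high and 48 in class II-low cells of the library labelled IPKO (14.1 and 4.08 CPM), and 80 and 19 UMIs in those labelled WT (6.61 and 1.66 CPM). The metallothionein gene Mt2 had 13.05 and 6.38 CPM labelled IPKO and 16.5 and 5.34 CPM labelled WT. Tnfsf9, the ligand of the T cell costimulator 4-1BB, had log2 ratios of 1.02 labelled IPKO and 1.19 labelled WT. Of the 10 genes in the costimulation list 3 were measured, and Tnfsf9 alone was higher in both (1.4% of all genes were). The list medians were -0.05 labelled IPKO and 0.63 labelled WT. Cells at the top of the Lcn2 and Lrg1 sum made up 11.1% of class II-high and 7.32% of class II-low cells labelled IPKO, and 13.3% and 7.82% of those labelled WT. Mitochondrially encoded genes summed to 37778 CPM in class II-high and 40553 CPM in class II-low cells labelled IPKO, and to 48575 and 55746 CPM in those labelled WT.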
